A study of Schizosaccharomyces pombe with 26 samples.

Results

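The 250 intergenic features described here were those at which chromatin immunoprecipitation (ChIP) of myc-tagged Med15 gave the highest signal over input in the fission yeast Schizosaccharomyces pombe, out of 4949 intergenic features on the array. A feature was taken when its ratio of ChIP over input, on the log2 scale and centred on the array median, was above 0 in all 3 samples of the Med15-myc strain, and the 250 features with the highest mean ratio were kept. In all, 847 features (17.1%) were above 0 in the 3 samples, so the members are 5.05% of the array. The members were thus chosen by their Med15-myc ratios in these 3 samples, and those ratios are given below as a description with no test.

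Mediator is the large complex that carries signals from DNA-bound transcription factors to RNA polymerase II. Med15 belongs to its tail module, the part that in budding yeast is contacted by transcriptional activators. Hrp1 is a chromatin remodeller of the CHD1 family, enzymes that use ATP to move or remove nucleosomes, and histone H3 is a core subunit of every nucleosome.

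The study asked where Med15 sits on the genome and how the density of histone H3 differs in cells lacking Med15 or Hrp1. H3 ChIP was measured in 3 samples of a delta-hrp1 strain (Δhrp1), 2 samples of a delta-med15 strain (Δmed15) and 2 samples of the wildtype strain (711), and Med15-myc ChIP in 3 samples of a strain whose Med15 carries the tag. All cells grew in rich YES medium to mid-log phase and were fixed with formaldehyde, the antibodies were against c-myc and against H3, and each ChIP DNA was hybridised with input DNA of its own preparation on arrays spotted with intergenic and with coding regions. The labels call the samples biological replicates with dyes swapped; p-values measure the spread between these samples. An untagged strain was not used here, so the Med15-myc ratios are not set against a background ChIP. Bulk ChIP gives an average over all cells, and it cannot tell fewer cells with a bound site from less binding per cell.

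The strains were checked through their input DNA. At the hrp1 coding region the input signal relative to the array median was -7.48, -7.35 and -6.09 on the log2 scale in the 3 Δhrp1 samples, against 1.22 and 1.13 in the 2 Δmed15 samples. At the med15 coding region it was -5.85 and -3.44 in Δmed15, against -0.18, -0.34 and -1.60 in Δhrp1, so each deletion strain was dim at the gene it lacks. The 3 Med15-myc arrays resembled each other only weakly. Over all 4949 features Spearman's rho of the ratios was 0.32 between samples 1 and 2, 0.26 between samples 1 and 3 and -0.02 between samples 2 and 3. The array median of the local background was 87.8, 4880 and 358 scanner units in the ChIP channel and 2159, 120 and 6481 units in the input channel of samples 1, 2 and 3, always high in the channel labelled with Cy5.

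Sequences of the regions before selected member genes are shown first, because these genes recur among the results below. They are RefSeq sequences of the ASM294v3 build, read 5′ to 3′ toward the gene: the intergenic region before the annotated gene start, or its last 250 bases where it is longer. The array's own probe coordinates were not used here, so a printed region may not be the region spotted, and its motifs are those of the annotated region before the gene. Letters in capitals are matches, on either strand, to any of 11 motifs, which were searched on both strands as short fixed strings. The TATA box was searched as TATAAA, the box known from fission yeast histone promoters as AACCCT, and the core site of the phosphate regulator Pho7 as TCGGAC. The core of the cyclic AMP response element (CRE) was searched as TGACGT, the MCB element of genes expressed at G1/S as ACGCGT, and the HomolD box of ribosomal protein genes as AGTCACA. The stress response element was searched as CCCCTC and the site of the glucose repressor Scr1 as CCCCAC. The forkhead site was searched as GTAAACA, the site of the CCAAT-binding complex as CCAAT, and the site of the DNA-binding protein Reb1 as TTACCCG. No letters of 1 motif were required to be free of another. The first set holds the promoters of the 6 member histone genes. hta1 and htb1 encode histones H2A and H2B and are transcribed away from one shared region of 177 bases, which is printed once; hta2 encodes a second H2A, and hhf1, hhf2 and hhf3 encode histone H4.
hta1, chrIII:1412182-1412358, minus strand: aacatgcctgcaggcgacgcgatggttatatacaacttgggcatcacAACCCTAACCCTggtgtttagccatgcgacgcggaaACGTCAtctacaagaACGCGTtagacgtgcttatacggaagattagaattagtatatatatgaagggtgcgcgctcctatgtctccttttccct
hta2, chrI:4053319-4053568, minus strand: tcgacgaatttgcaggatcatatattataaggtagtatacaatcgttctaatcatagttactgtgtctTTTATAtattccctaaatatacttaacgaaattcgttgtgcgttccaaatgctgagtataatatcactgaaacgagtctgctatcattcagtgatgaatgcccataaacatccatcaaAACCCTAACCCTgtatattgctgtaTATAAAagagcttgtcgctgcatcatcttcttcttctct
hhf1, chrI:4699600-4699731, minus strand: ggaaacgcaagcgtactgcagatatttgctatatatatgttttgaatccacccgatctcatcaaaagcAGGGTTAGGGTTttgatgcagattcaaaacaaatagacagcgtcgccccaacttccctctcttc
hhf2, chrII:1364985-1365118, minus strand: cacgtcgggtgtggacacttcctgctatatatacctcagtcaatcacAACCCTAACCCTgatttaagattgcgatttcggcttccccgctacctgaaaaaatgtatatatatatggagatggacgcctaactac
hhf3, chrII:3529566-3529766, plus strand: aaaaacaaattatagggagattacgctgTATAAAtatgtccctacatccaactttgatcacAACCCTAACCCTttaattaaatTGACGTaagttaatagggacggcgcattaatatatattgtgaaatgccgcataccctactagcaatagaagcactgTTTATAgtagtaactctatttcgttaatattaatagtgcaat

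Each of these 5 regions held the histone box in tandem, AACCCTAACCCT, read on one strand or the other. The tandem form, looked at after these sequences had been read, occurred before 18 of 4018 array genes with a region of any length up to 250 bases (0.448%) and before 7 of 179 such member genes. Genes are counted, so a region shared by divergent genes counts for each. The 7 were the 6 histone genes, of which hta1 and htb1 share one region, and SPAC27E2.11c, whose product is specific to Schizosaccharomyces. The regions before hht2 and hht3, which encode histone H3, also carried it. The features of these genes had mean ratios of 0.76 and 0.79, below the limit of membership. The features of the other 9 of the 18 genes were not members. Among them were those of tbp1 (the TATA-binding protein) with a mean ratio of 0.73 and hsp90 (a chaperone) with 0.51. A match of letters is a description and does not show a bound site.

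The second set shows promoters with high Med15-myc ratios outside the histone genes. tgp1 encodes a glycerophosphodiester transporter and pho1 the secreted acid phosphatase, both made when phosphate is scarce. pdc101 encodes a putative pyruvate decarboxylase, and SPAC17A2.10c and SPAC27E2.11c are uncharacterised.
tgp1, chrII:352412-352661, minus strand: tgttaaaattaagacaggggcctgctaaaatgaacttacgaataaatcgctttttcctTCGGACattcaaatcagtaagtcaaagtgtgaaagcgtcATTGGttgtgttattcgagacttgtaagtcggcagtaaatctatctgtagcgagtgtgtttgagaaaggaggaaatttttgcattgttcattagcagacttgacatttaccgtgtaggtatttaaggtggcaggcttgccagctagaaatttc
pho1, chrII:4447256-4447505, plus strand: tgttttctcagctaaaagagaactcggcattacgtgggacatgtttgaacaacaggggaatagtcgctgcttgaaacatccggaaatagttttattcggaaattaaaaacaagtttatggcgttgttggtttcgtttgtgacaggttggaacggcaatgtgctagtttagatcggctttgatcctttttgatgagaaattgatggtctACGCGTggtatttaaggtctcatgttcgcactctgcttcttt
pdc101, chrI:103598-103847, minus strand: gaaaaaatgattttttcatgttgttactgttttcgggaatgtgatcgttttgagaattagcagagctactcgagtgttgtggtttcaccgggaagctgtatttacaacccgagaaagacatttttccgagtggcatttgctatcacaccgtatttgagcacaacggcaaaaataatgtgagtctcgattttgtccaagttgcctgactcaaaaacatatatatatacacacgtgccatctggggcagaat
SPAC17A2.10c, chrI:3575688-3575937, minus strand: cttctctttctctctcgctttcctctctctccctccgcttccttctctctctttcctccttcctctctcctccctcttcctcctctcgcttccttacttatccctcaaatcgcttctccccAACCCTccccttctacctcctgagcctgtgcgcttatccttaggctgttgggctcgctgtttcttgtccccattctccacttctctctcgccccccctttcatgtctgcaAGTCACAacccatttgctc
SPAC27E2.11c, chrI:4009926-4010175, minus strand: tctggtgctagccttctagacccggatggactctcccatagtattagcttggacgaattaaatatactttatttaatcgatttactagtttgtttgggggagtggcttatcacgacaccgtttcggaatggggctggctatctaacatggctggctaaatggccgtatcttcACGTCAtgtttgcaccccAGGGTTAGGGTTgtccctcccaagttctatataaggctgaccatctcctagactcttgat

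The tgp1 window held the Pho7 core, which occurred in 2.45% of all 2903 windows of 250 bases, and the CCAAT box, which occurred in 35.3%. The pho1 window held the MCB element (2.82% of all windows), and the pdc101 window held none of the 11 motifs. SPAC17A2.10c had the HomolD box (122 of the 2903 windows) and 1 histone box (7.13%) in a window with 54% G and C. SPAC27E2.11c had the tandem histone box and the CRE core (5.58%).

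Over members with a full window of 250 bases, the motifs were counted beside all features. The CRE core stood in 12 of 107 member windows (11.2%) against 5.58% of all windows, the MCB element in 7 (6.54%) against 2.82%, and the histone box in 13 (12.1%) against 7.13%. The TATA box stood in 51.4% of member windows against 44.9% of all windows, the forkhead site in 17.8% against 15.7%, and the stress element in 1 member window (0.935%) against 1.96%. The shares of the other 5 motifs among members were 39.3% for the CCAAT box, 6.54% for the HomolD box, 4.67% for the Pho7 core, 1.87% for the Reb1 site and 0.935% for the Scr1 site, against 35.3%, 122 of 2903, 2.45%, 0.896% and 2.96% of all windows. These shares are descriptions of small counts.

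The members had mean ratios between 3.27 and 0.94, with a median of 1.34. The last 3 inside the limit were SPAC9G1.01 at 0.943, the long-region tile of ure6 (longIGRSPAC29A4.13) at 0.942 and SPAC1002.20 at 0.939, and the first 3 outside were mde3 (SPBC8D2.19) at 0.939, mug30 (SPBP8B7.27) at 0.939 and erg10 (SPBC215.09c) at 0.938. Of the 250, 229 were joined to 1 gene of the RefSeq annotation, 7 to several and 14 to none. The 229 features named 228 genes, of which 1 was a long noncoding RNA gene (prt2) and the others encoded proteins. Members lay on chromosomes I, II and III in 42.8%, 37.6% and 19.7% of cases, against 46.0%, 35.6% and 18.4% of all features with 1 gene. The upstream neighbour was divergent for 53.9% of members and 54.6% of all features, and the median gap to it was 291 bases for members (n = 208) and 448 bases for all features (n = 4541).

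A high ratio arose in different ways at different members. In 77 members the ChIP signal itself was above the array median in all 3 samples, in 36 it was so in 2 samples, in 57 in 1 sample, and in 80 in none. Over all 4949 features these counts were 1409, 1058, 1079 and 1403 in the same order. A ChIP signal above the median in every sample was thus about as common on the whole array as among the members. This division into 77 bright members and 173 others was made after the values were seen. The bright members had a median ChIP signal of 1.65 and a median input signal of 0.26 relative to the array median on the log2 scale, while the other 173 had -0.61 and -2.09. The input lay at the floor of 50 units in at least 1 sample for 80 members (32.0%), of which 76 were among the 173, against 495 of all 4949 features. The standard deviation of the ratio between the 3 samples had a median of 0.43 in the bright members and 1.10 in the others. Of all members, 79 were also taken under each of 5 other ways of making the ratio, and 53 of these were bright. What part dim inputs have in the ratios of the 173 was not tested.

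A few features that the rule did not use are given for the bright members as descriptions, with no test. Their neighbour was divergent in 65.1% of cases (41 of 63), the median gap to it was 343 bases (n = 48, against 278.5 bases for the other members, n = 160), and 11 of 64 had an uncharacterised gene. Over all features these were 54.6%, 448 bases and 283 of 4713. The median content of G and C in windows of 250 bases was 38.8% in 29 windows of bright members, 31.2% in 78 windows of the other members and 32.4% in all windows.

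**Figure D1:**
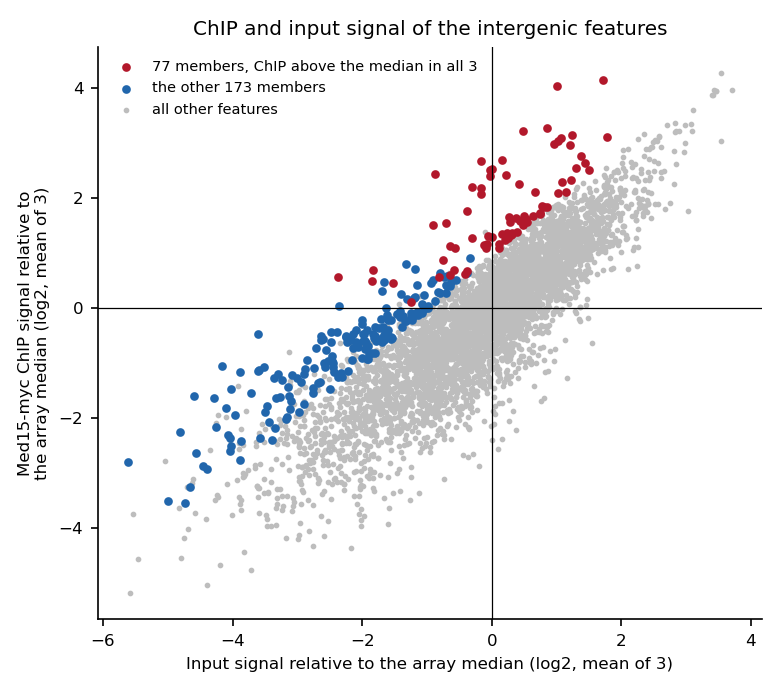
Each point is 1 intergenic feature of the Med15-myc samples, with the input signal on the horizontal axis and the ChIP signal on the vertical axis, both on the log2 scale relative to the array median and averaged over 3 samples. The 77 members with ChIP signal above the median in every sample are red, the other 173 members blue and all other features grey; the blue points lie at low input, with a median of -2.09.

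The 12 highest members mixed both kinds, 5 bright and 7 not. The first was the feature SPAP15E9.02c, with ratios of 2.75, 4.95 and 2.12 in samples 1, 2 and 3, which no gene of the annotation matched. The feature named for med15 itself came second with 1.18, 3.96 and 4.17. Its input in the tagged strain was -3.61 relative to the array median and at the floor in 1 sample. The feature of hrp1 had -0.21, -2.74 and 1.01 and was not a member.

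SPAC17A2.10c had 2.75, 3.29 and 2.94, and the 3 samples lay within an SD of 0.27. SPAC27E2.11c had 2.67, 3.62 and 2.09, and the feature named gpd1, which the annotation gives to several genes, had 2.90, 3.28 and 1.92. SPCC569.05c, which encodes a transporter of the spermidine family, had 1.52, 2.19 and 4.99, so its mean of 2.90 rested mainly on sample 3. These 4 and SPAP15E9.02c were the bright members among the 12.

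The other members among the first 12 were dim in both channels and uneven between samples. acb1 (an acyl-coenzyme A binding protein) had 0.32, 3.86 and 5.07, and hsp78 (a mitochondrial chaperone) had 0.75, 2.58 and 5.01 with input at the floor in all 3 samples. ubc15 (a ubiquitin-conjugating enzyme), ubx3 (a UBX domain protein), ssb2 (a single-stranded DNA-binding protein) and snf30 (a SWI/SNF subunit) each had the input at the floor in 2 samples, and their SDs were 1.47, 1.57, 1.81 and 1.58. In each of these 6 the lowest sample was at most 1.32, below the member median.

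Among the gene groups with at least 2 members, histone genes had the largest share: 6 of their 10 features were members, and 5 of these were bright. The hta1 feature had ratios of 2.60, 1.96 and 2.95 and the htb1 feature 2.61, 1.86 and 2.06. Both are named for genes that share one divergent region, and may or may not be spotted from it. All 6 of these values were above the member median. hhf1 had 1.93, 3.42 and 0.96, hhf2 1.75, 0.78 and 1.09, and hhf3 1.55, 0.95 and 1.05. hta2 had 1.62, 1.19 and 0.84. Sample 1 was the highest in hhf2, hhf3 and hta2. The features outside the membership were hht3 at a mean of 0.79, pht1 (the variant H2A.Z) at 0.78, hht2 at 0.76 and cnp1 (the centromeric H3 variant) at -2.56. A feature named h3.1 was a member too, with 1.33, 0.92 and 0.88, but no gene was matched to it and it is not counted in the 10.

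Phosphate genes had 4 members among 8 features, all bright. prt2, a noncoding RNA that represses the phosphate transporter gene pho84 in cis, had 2.95, 2.18 and 2.31. pho1 had 1.87, 3.96 and 1.60, tgp1 1.72, 1.12 and 1.24, and pho84 1.67, 0.62 and 1.77. The lowest of these 12 values was the 0.62 of pho84 in sample 2, and prt2 was the only one of the 4 above 2 in every sample. The pho7 feature, named for the gene of the phosphate regulator, averaged 0.83, and the long-region tiles of pho1 and tgp1 averaged 0.43 and 0.33. The feature of pho4, a thiamine-repressible phosphatase gene, averaged -0.77.

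Genes of sugar breakdown were represented by their high members rather than as a whole. Among 11 features of glycolytic enzymes 3 were members: pgk1 (phosphoglycerate kinase) with 1.80, 2.79 and 2.47, pfk1 (phosphofructokinase) with 2.20, 1.61 and 1.36, and hxk2 (hexokinase) with 0.76, 0.52 and 1.71. The median of the 11 was 0.92, and 5 were above 0 in every sample. A feature named eno1, for enolase, was a bright member too, with 2.45, 1.87 and 1.62, but the annotation gives that name to several genes and it is not counted in the 11. Among 12 features of fermentation, glycerol and malate genes 2 were members, mae2 (malic enzyme) with 2.63, 3.03 and 1.84 and pdc101 with 2.62, 2.76 and 1.82. adh1, the alcohol dehydrogenase gene, had 2.55 and 1.96 in samples 1 and 2 but -0.14 in sample 3 and so was not a member.

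G1/S regulated genes had 4 members among 17 features, none of them bright. cdc18, the loader of the replicative helicase, had 1.45, 1.99 and 2.45, and cdc22, the large subunit of ribonucleotide reductase, had 2.80, 1.16 and 1.63. cdt1, a licensing factor, had 0.67, 2.81 and 1.79, and mik1, a kinase that holds back mitosis, had 0.58, 3.38 and 0.31. The last 2 were high in sample 2 above all.

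The remaining groups had few members. Cell wall and surface genes had 3 of 25, namely the beta-glucosidase genes psu1 (2.43, 4.44 and 0.63) and adg3 (0.76, 2.57 and 1.07) and the surface protein gene ecm33 (0.65, 0.59 and 2.28). Ribosomal protein genes, the largest group, had 5 of 128 (3.91%), close to the 5.05% of all features, and a median ratio of -0.12. RNA polymerase II and general transcription factor genes had 2 of 34, taf11 of TFIID (0.61, 2.34 and 0.53) and tfa2 of TFIIE (1.08, 0.35 and 2.01). Amino acid genes had 2 of 40, the ornithine transaminase gene car2 (0.50, 3.51 and 2.06) and the lysine synthesis gene lys1 (0.23, 2.30 and 1.48), and Mediator subunit genes 1 of 14, med15. The groups with 0 members were thiamine, mating, transcription factor, chromatin remodeller, ergosterol and lipid, nucleotide synthesis, ion pump, and respiratory and TCA cycle genes, among 31 groups in all.

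Some members lay next to each other. Among 1103 divergent gene pairs with a feature each, 10 had both features among the members, among 1850 tandem pairs 7, and among 1106 convergent pairs 1, that of smb1 and rga2. In 78 divergent, 146 tandem and 106 convergent pairs 1 feature was a member. With 5.05% of all features being members, some pairs of members arise by frequency alone, and no test set these counts against that. The 10 divergent pairs included hta1 and htb1, pdc101 and SPAC1F8.08, psu1 and SPAC1002.20, SPAC17A2.10c and SPAC17A2.11, and mug114 and hxk2. A divergent pair can share one region, and sheared chromatin reaches beyond one feature, so such pairs are not independent. pho84 and pho1 were a tandem pair of members.

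On the coding region arrays, 225 features belonged to the members' genes. Their Med15-myc ratio was above 0 in all 3 samples for 40 of them (17.8%), against 18.3% of all 4856 coding features, and 15 of 62 (24.2%) for genes of bright members. The intergenic and coding spots fill one grid, so they are probably the same hybridisation, and the values are a description. The highest was prt2 with 2.95, 2.61 and 2.75. mug114, a gene named for its rise in meiosis, had 1.75, 2.51 and 1.28, and SPAC56F8.13, uncharacterised, 1.52, 1.46 and 1.60. SPAC1F8.08 had 2.21, 1.41 and 0.80, and mug116, another gene named for its rise in meiosis, 1.26, 2.11 and 0.52. All 5 belonged to bright members.

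**Figure D2:**
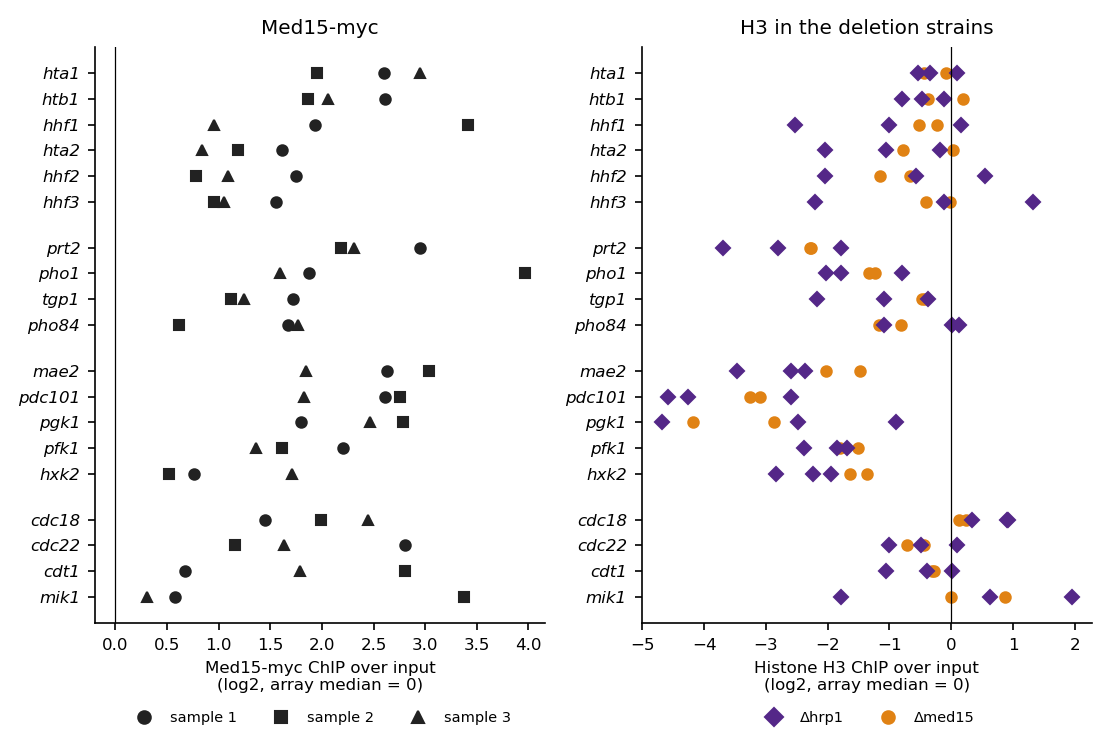
Each row is a member gene, with histone, phosphate, sugar and malate, and G1/S genes in blocks. The left panel gives Med15-myc ChIP over input in samples 1 to 3 and the right panel H3 ChIP over input in the 3 Δhrp1 and 2 Δmed15 samples, both on the log2 scale with the array median at 0; pdc101 is at -2.60 or lower for H3 in every sample while hta1 and htb1 lie near 0.

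H3 over input was measured in the 5 deletion samples, which the choice of members did not use, and tested against the array median with limma over all features. The test pooled the 5 samples of both deletion strains as one group, with no term for the strain. A call is thus about the mean of these samples and not about either strain. Of the 250 members 37 (14.8%) were higher than the median at an adjusted p under 0.05, where 3.72% of all features were. A further 45 (18.0%) were lower, where 9.34% of all features were. The median H3 level was 0.33 in the members and 0.02 in all features. By sample, the members' median was -0.40, 0.07 and 0.57 in Δhrp1 and 0.33 and 0.02 in Δmed15, so it was not above 0 in every sample. Without Δmed15 sample 2 the members called higher were 19, and without Δhrp1 sample 3 they were 23, while 41 to 46 were called lower when single samples were left out. With the ratio as scanned, without background subtraction, 0 members were higher and 12 lower, where 0 and 20 of all features were. With the normexp correction 68 members were higher and 53 lower, where 635 and 819 of all features were. Members were thus called lower at each of these settings, and called higher only where background was corrected.

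The direction differed between the bright members and the others. Among the 77 bright members 31 were lower and 15 higher, with a median level of -0.48. Among the other 173 members 14 were lower and 22 higher, with a median of 0.40. Sample medians of these 173 differed in sign, at -0.47, 0.23 and 1.46 in Δhrp1 and 0.55 and 0.17 in Δmed15. Those of the bright members were -0.34, -0.22 and -1.30 in Δhrp1 and -0.62 and -0.43 in Δmed15. Of all features 9.34% were lower and 3.72% higher. The 8.09% of the other members that were lower lay near that share. Of the 24 bright members among the first 50 by Med15-myc ratio, 19 were lower and 1 higher, and of the 53 after them 12 were lower and 14 higher. The bright class and the cut at 50 both rest on the Med15-myc values that chose the members, so these counts are a description. The 26 other members among the first 50 are not in them. Long-region tiles, the features whose array names contain longIGR, were 18 of the bright members, and 7 of these were higher and 2 lower, while among all 165 tiles 30 were higher and 9 lower. The bright members that were not tiles had 29 of 59 lower and 8 higher, with a median of -0.92. The difference between these subsets was not tested. The inputs on the H3 arrays differed between them too, with sample medians from 0.47 to 1.40 in the bright members and from -2.88 to -0.97 in the others, and its part in the levels was not tested. When all features were put in 4 equal bands by their input on the Med15-myc arrays, 153 of the 1237 in the brightest band were lower and 38 higher, and 77 of the 1238 in the dimmest were lower and 57 higher. Of the members, 12 of 24 in the brightest band were lower and 4 higher, and 13 of 160 in the dimmest were lower and 18 higher. In the second dimmest band 14 of 36 members were lower and 8 higher, where 115 and 46 of all 1237 features were. In the second brightest band 6 of 30 members were lower and 7 higher, where 117 and 43 of all 1237 were.

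pdc101 had the lowest level among the named members joined to 1 gene. Its H3 over input was -4.59, -4.27 and -2.60 in Δhrp1 and -3.10 and -3.26 in Δmed15. The mean over the 5 samples was -3.56 ± 0.303 (SE, limma adjusted p = 1.13e-05). All 5 samples were far below the array median. SPAC17A2.10c had -2.83, -2.92 and -3.07 in Δhrp1 and -2.98 and -3.58 in Δmed15, a mean of -3.07 ± 0.287 (adjusted p = 1.36e-05). SPAC27E2.11c had -3.77, -5.12 and -3.04 in Δhrp1 and -2.53 and -2.34 in Δmed15, a mean of -3.36 ± 0.360 (adjusted p = 2.73e-05). Among the features without a single gene, gpd1 and SPAP15E9.02c were at -3.65 and -3.51. The other low members included SPAC17A2.11 (-3.31), sua1, the ATP sulfurylase gene (-3.18), pgk1 (-3.02), SPAC1002.20 (-2.98), the tile of SPAC1F8.08 (-2.97), psu1 (-2.96) and SPAC56F8.13 (-2.86). Each of these passed the test.

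The H3 levels of the gene groups are given next, and no test compared the groups. mae2 had a level of -2.39, hxk2 of -2.004 and pfk1 of -1.84, and with pgk1 and pdc101 all 5 members of these groups passed as lower, where 9.34% of all features did. Low H3 was not limited to the members of these groups, nor to groups with high Med15-myc ratios. Of 123 ribosomal protein features outside the membership, 67 passed as lower and 0 as higher. All 128 features of that group had a median H3 level of -1.04 and a median Med15-myc ratio of -0.12. Outside the membership 5 of 8 features of glycolytic enzymes and 3 of 10 of fermentation, glycerol and malate genes passed as lower, among them pyk1 (pyruvate kinase) at -3.30, adh1 at -3.10, gpm1 (phosphoglycerate mutase) at -2.99 and fba1 (aldolase) at -2.79. Among the phosphate members prt2 (-2.57) and pho1 (-1.44) passed, and tgp1 (-0.91, limma adjusted p = 0.0716) and pho84 (-0.59, adjusted p = 0.203) did not. None of the 6 histone members passed, while 2 of the 4 histone features outside the membership passed as lower, pht1 at -1.07 and hht2 at -0.98. hta1 was at -0.34, -0.54 and 0.10 in Δhrp1 and -0.08 and -0.43 in Δmed15, a mean of -0.26 ± 0.280 (adjusted p = 0.563). The other 5 had means between -0.83 (hhf1) and -0.28 (hhf3). The 4 G1/S members had means of 0.50 (cdc18), -0.51 (cdc22), -0.41 (cdt1) and 0.33 (mik1), and none passed.

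Among members with high H3, tdp1 (a tyrosyl-DNA phosphodiesterase) was at 3.18, 1.20 and 2.90 in Δhrp1 and 0.39 and 1.23 in Δmed15, a mean of 1.78 ± 0.390 (adjusted p = 0.00797). msh1 (mitochondrial mismatch repair) and ctl1 (a choline transporter family protein) followed with 1.77 and 1.69. The next were the tile of pfl4 (a flocculin) at 1.51, the tile of mei2 (the master regulator of meiosis) at 1.51, vps29 (a retromer subunit) at 1.44 and the tile of fbp1 (the glucose-repressed fructose-1,6-bisphosphatase) at 1.43. SPAPB2B4.06, tho3 (a THO complex subunit) and tyw3 (tRNA wybutosine synthesis) were at 1.35, 1.33 and 1.29. The mei2 tile had 3.24, 2.44 and -0.67 in Δhrp1 and 1.20 and 1.35 in Δmed15, so 1 Δhrp1 sample was below the array median. mei2 and fbp1 are genes known to be off in rich glucose medium, but RNA was not used here. Their features are long-region tiles, and all 165 tiles had a median level of 0.60, with 30 higher and 9 lower. Whether expression or the tile class bears on these levels was not tested.

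**Figure D3:**
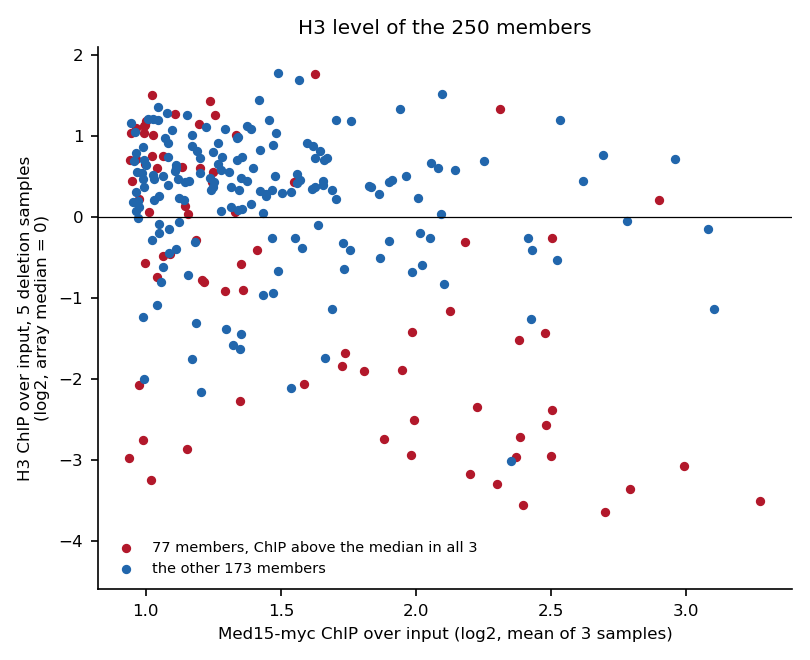
Each point is 1 of the 250 members, with its mean Med15-myc ratio on the horizontal axis and its mean H3 ChIP over input in the 5 deletion samples on the vertical axis, both on the log2 scale with the array median at 0. The 77 bright members are red and the other 173 blue. Of the 24 red points among the first 50 by ratio, 19 were called lower and 1 higher. Of the 53 red points after them, 12 were called lower and 14 higher. The 26 blue points among the first 50 are not in these counts. The red class and the cut at 50 both rest on the Med15-myc values that chose the members, so the counts are a description.

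H3 over input was then compared between the strains that have both channels. Between Δhrp1 and Δmed15 0 members differed at an adjusted p under 0.05 in limma, as did 0% of all features, with 7 members higher and 6 lower at an unadjusted p under 0.05, where 68 and 37 of all 4949 features were. The largest such differences, none of which passed, were those of med15 (2.57), SPAC186.06, an isomerase gene (2.33), and myh1, a DNA glycosylase gene (1.65), higher in Δhrp1, and of not1, a subunit of the CCR4-Not complex (-2.25), cbm1, a protein with a cellulose-binding domain (-2.25), and SPAC922.04 (-2.19). The med15 feature, named for the gene deleted in Δmed15, had -2.56, 0.16 and 1.71 in Δhrp1, against -2.42 and -2.59 in Δmed15, so its groups overlapped.

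The wildtype strain entered through the H3 ChIP channel alone, because its input was not used here, so these differences are in ChIP signal and not in occupancy. Both wildtype samples had the ChIP DNA in Cy3, and the dye term of the fit comes from the deletion samples. In Δhrp1 5 of 241 members tested were higher than in wildtype (3.96% of all features were higher) and 32 were lower (8.32% of all features were lower). The member counts are 2.07% and 13.3%. The median difference was -0.78 in members and -0.08 in all features. All Δhrp1 values were below both wildtype values in 92 of the 241 members (38.2%) and above both in 29, against 26.3% and 23.4% of all features. With either wildtype sample left out the counts were 0 higher and 0 lower; the wildtype arm then holds 1 sample, whose spread is taken from the other groups. Without Δhrp1 sample 2 they were 4 and 18, and without Δhrp1 sample 1 10 and 44. The array median of the ChIP channel was 612, 2931 and 3901 units in Δhrp1 samples 1, 2 and 3, and 2668 and 1700 in Δmed15. The members' median H3 ChIP signal was -1.51, -0.59 and -0.72 in the Δhrp1 samples and -0.33 and -0.30 in wildtype. What part the dim channel of Δhrp1 sample 1 has in the counts was not tested.

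The difference moved with the brightness of the input on the Med15-myc arrays. With all features again in 4 bands, the median Δhrp1 minus wildtype difference in the dimmest band was -0.997 in 153 members and -1.14 in all 1218 features. In the second band it was -0.62 in 34 members and -0.20 in all features, in the third 0.26 in 30 members and 0.23, and in the brightest -0.18 in 24 members and 0.39. Of the 32 lower members 22 were in the dimmest band, 22 of its 153 members, where 233 of all 1218 features in that band were lower. In the second band 8 of 34 members and 98 of 1215 features were lower. The members' share was thus below that of all features in the dimmest band and above it in the second, with no test of either. For Δmed15 the medians in the same order were -0.70, -0.02, 0.42 and -0.07 in members and -0.69, -0.07, 0.18 and 0.37 in all features. How much of the members' difference belongs to the dimness of their input was not tested beyond these bands.

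**Figure D4:**
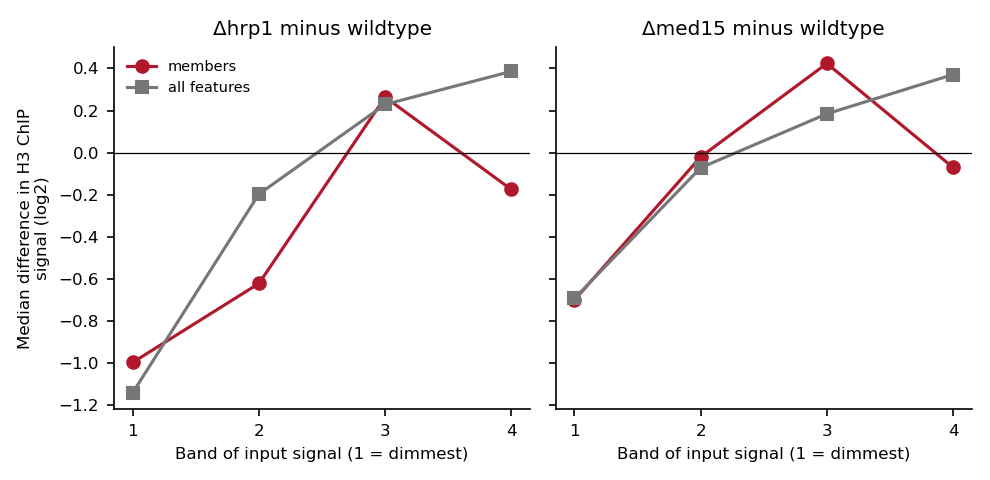
The median difference in H3 ChIP signal (log2) is plotted against the band of input signal, from the dimmest (1) to the brightest (4), for Δhrp1 minus wildtype on the left and Δmed15 minus wildtype on the right. Red points are the members and grey points all features; in band 1 for Δhrp1 they lie at -0.997 and -1.14.

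Among the members that fell in Δhrp1, mug116 had H3 ChIP signals of -2.41, -4.09 and -0.43 in Δhrp1, against 1.74 and 2.16 in wildtype. Its difference was -4.76 ± 0.808 (SE, limma adjusted p = 0.0172), and the 2 Δmed15 samples lay between at 0.28 and 0.52. The log2 difference was -4.50 at trz2 (a tRNA-processing endonuclease), -4.31 at not1 (the scaffold of the CCR4-Not complex), -4.15 at odr1 (a haloacid dehalogenase-like hydrolase) and -4.04 at act1 (actin). It was -3.90 at mfs3 (a spermidine family transporter), -3.74 at sua1, -3.73 and -3.72 at the 40S ribosomal protein genes rps2202 and rps1602, and -3.66 at SPAC27E2.11c. For rps2202 1 of the 3 Δhrp1 values and 1 of the 2 Δmed15 values were at the floor and left out. Such members were named only where no Δhrp1 value reached the wildtype values.

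The members that rose in Δhrp1 were fewer. gle1 (a nucleoporin) had 2.89, 1.17 and 0.63 in Δhrp1, against -0.91 and -1.35 in wildtype, a difference of 2.98 ± 0.675 (adjusted p = 0.0278). prp16 (a splicing helicase) rose by 2.68, ctl1 by 2.59 and the tile of SPCC70.04c by 2.43.

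**Figure D5:**
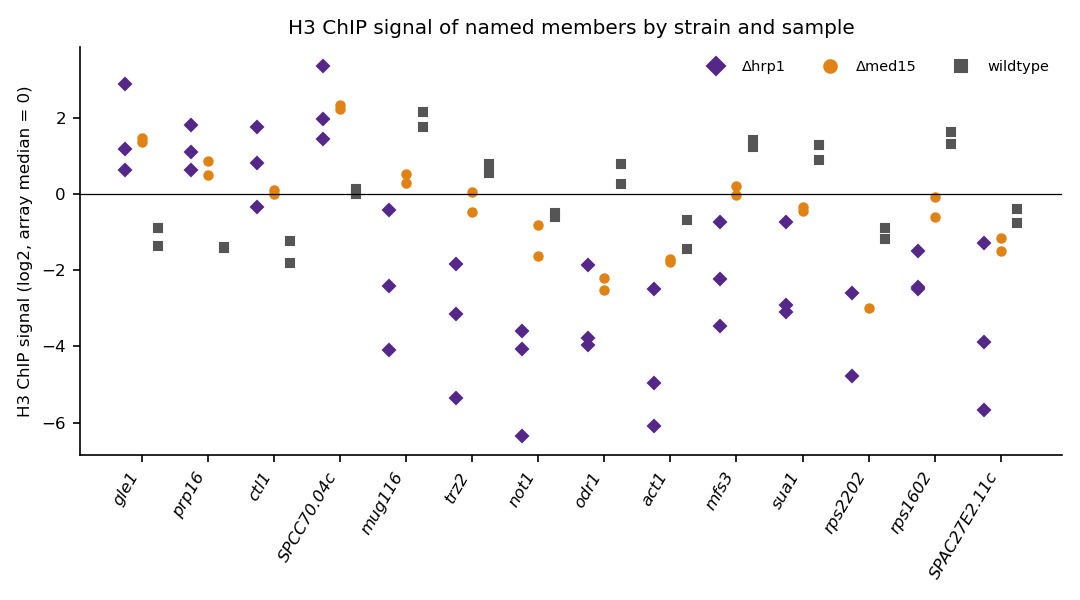
H3 ChIP signal (log2, array median at 0) of the named members that rose (first 4) or fell (next 10) in Δhrp1 against wildtype. Each point is 1 sample, in the order Δhrp1, Δmed15 and wildtype for each gene; for mug116 the Δhrp1 values are -2.41, -4.09 and -0.43 and the wildtype values 1.74 and 2.16.

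In Δmed15 0 of 241 members were higher and 0 lower than in wildtype at an adjusted p under 0.05 in limma, where 0.0411% and 0.144% of all features were. At an unadjusted p under 0.05, 12 of 241 members were higher and 41 lower, where 385 and 539 of all 4868 features were, and the median difference was -0.34 in members and -0.07 in all features. Without Δhrp1 sample 1, which shares the estimate of spread and dye, the adjusted counts were 8 and 27, and without each other sample 0 and 0. With arrays scaled to one spread they were 5 and 16. Δhrp1 sample 1 had the dimmest ChIP channel of the intergenic deletion arrays, with a median of 612 units. The largest differences, which did not pass, were psu1 at -4.41 (adjusted p = 0.0659), rps2202 at -4.12, with 1 Δmed15 sample measured, and pgk1 at -3.77 on the low side. On the high side they were gle1 at 2.97 (adjusted p = 0.0994), tho3 at 2.73 and mug103 at 2.62. psu1 had -4.01 and -4.87 in Δmed15, against -1.32 and -0.61 in wildtype. Both comparisons with wildtype use the same wildtype samples.

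Between Δhrp1 and Δmed15 H3 ChIP signal differed at an adjusted p under 0.05 in 0 members in limma, and in 0% of all features, with 8 members higher and 37 lower at an unadjusted p under 0.05, where 428 and 569 of all 4866 features were. Without Δhrp1 sample 1 the adjusted counts were 12 and 23, without each other sample 0 and 0, and with arrays scaled to one spread 7 and 9. The highest differences were SPAC1F8.08 (2.66, adjusted p = 0.0823), vps11, a subunit of a vacuolar fusion complex (2.41, with 1 Δhrp1 value at the floor and left out), and the tile of rpl1002, a ribosomal protein gene (2.05). The lowest were not1 (-3.35), trz2 (-3.04) and cbm1 (-2.99). SPAC1F8.08 had 0.08, -0.14 and 1.44 in Δhrp1, against -2.07 and -2.05 in Δmed15.

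The coding regions beside the members were also compared between strains, over 222 tested features of the members' genes. In Δhrp1 22 were higher and 36 lower than in wildtype, where 13.6% and 13.8% of all coding features were, and the members' shares were 9.91% and 16.2%. Genes of bright members had 3 higher and 16 lower of 62. With either wildtype sample left out, and so 1 wildtype sample in the fit, no count was above 1. In Δmed15 4 were higher and 9 lower, where 3.03% and 2.42% of all coding features were; the counts ranged from 0 to 14 higher and 0 to 24 lower when single samples were left out, the highest without Δhrp1 sample 1 and the lowest without either wildtype sample.

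tim54, a subunit of the mitochondrial protein import complex, had a low H3 ChIP signal over its coding region in the deletion strains. Its H3 ChIP signal was -5.29, -5.42 and -5.15 in Δhrp1 and -6.02 in the 1 measured Δmed15 sample, against -0.12 and 0.40 in wildtype. The difference was -5.50 ± 0.408 in Δhrp1 (adjusted p = 0.00304). In Δmed15 it was -6.16, and since that strain has 1 value there, its adjusted p of 0.00644 takes the spread from the other samples. H3 over input at tim54 was nearer to the array median, at -1.38, -2.09 and 0.78 in Δhrp1 and -0.75 and -0.32 in Δmed15. In Δhrp1 the coding regions of mug116 (-5.72), ecm33 (-4.28), mug114 (-4.195), SPAC17A2.11 (-3.51), vht1, the biotin transporter gene (-3.47), and htb1 (-3.41) fell as well. SPCC594.03 fell by 3.41, der1 (a protein of degradation at the endoplasmic reticulum) had -3.34 and gle1 had -3.34, so gle1 was lower over its coding region and higher over its intergenic feature.

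The htb1 coding region had -3.94, -1.87 and -1.75 in Δhrp1, against 0.38 and 1.29 in wildtype (adjusted p = 0.0173). Over input it had 1.70, -0.44 and -0.62 in Δhrp1 and -0.94 and -0.15 in Δmed15, so the low ChIP signal in Δhrp1 was not matched by a low ratio in every sample. Its intergenic feature, in contrast, had 0.30, 0.26 and 0.21 in Δhrp1, against -0.09 and -0.67 in wildtype, a difference of 0.53 that did not pass (adjusted p = 0.538). In Δmed15 the coding regions that fell were, after tim54, those of SPAC1F8.08 (-4.29), SPAC17A2.11 (-3.13), SPBPB7E8.01 (-2.67), med15 (-2.59), atp12, an ATPase assembly factor (-2.41), psf3, a GINS subunit (-2.16), igo1, a phosphatase inhibitor (-1.90), and hxk2 (-1.77). The med15 coding region is deleted in that strain.

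The coding regions that rose in Δhrp1 were led by scs7 (sphingolipid hydroxylation) at 3.16, SPCC1672.09 (a lipase) at 3.08, apn2 (DNA repair) at 3.07 and vps29 at 2.59. These 4 were also the 4 that rose in Δmed15, by 2.91, 2.74, 3.05 and 2.75, and both comparisons share the wildtype samples. scs7 had 2.47, 1.19 and 1.33 in Δhrp1 and 1.37 and 1.37 in Δmed15, against -0.73 and -2.09 in wildtype. acb1, pim1 (the exchange factor of Ran), sec59 (dolichol kinase), mud1 (a ubiquitin-binding protein), ppr2 (an RNA-binding protein of mitochondria) and rrp16 (ribosomal RNA processing) rose in Δhrp1 by 2.49, 2.30, 2.06, 1.96, 1.94 and 1.90.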

How the data were processed

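The authors deposited scanner intensity tables for the Med15-myc and deletion-strain arrays, with the median signal and local background of the ChIP and input channels per the file headers, and a table of log2 values of all array samples. From their match to the scanner files, the deposited log2 values are the background-subtracted ChIP channel over a constant of each array, not divided by input. The aligner or build behind the array design and the image software settings are not given in the sources used here. Scanner tables of the wildtype H3 samples were not used here, so wildtype values are the deposited log2 ChIP values.

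From the scanner intensity, background was subtracted, both channels were floored at 50 units, and log2 ratios of ChIP over input were averaged over the 2 spots of a feature and centred on the array median. H3 ratios and deposited H3 values were tested with limma 3.58.1 in R 4.3.3 over all features of an array type. The deposited values were also centred, and values at the floor were left out. The fits had the ChIP dye as a covariate and Benjamini-Hochberg adjustment at 0.05. Simulated data, made without a dye effect, were run only for intergenic H3 ChIP signal in Δhrp1 against wildtype, and do not cover the other fits. The number of arrays limits the precision. Features were named through the RefSeq annotation. The text names the 12 highest members, those at the limit, up to 6 of each gene list with 2 or more members, and for each H3 comparison the 10 largest changes each way among called members whose groups do not overlap, or, with fewer than 3 called, the 3 largest at an unadjusted p under 0.05. Other genes named, such as non-members of a list, were chosen after their values were seen. The members and gene lists were chosen with earlier results of these data known. A planned limma test of the Med15-myc coding ratios was replaced by a description, since those spots are probably of the same hybridisation. The RNA arrays were not used here, since no table used here names their probes' genes. Alternatives were the floor, the background correction, loess, the dye term, array scaling, values at the floor, a replicate block and leaving out each sample.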

Additional observations from a re-analysis of the deposited data

Results flagged for a closer look

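cbm1 (SPAC2E1P3.05c), which encodes a protein with a cellulose-binding domain, stood out because its H3 ChIP values lay on opposite sides of the wildtype values in the deletion strains. It had -1.61, -1.95 and -0.43 in Δhrp1 and 1.58 and 1.94 in Δmed15, against 1.05 and 0.69 in wildtype. The direct difference, Δhrp1 minus Δmed15, was -2.99 with a limma adjusted p of 0.0823, which does not pass the threshold, and its difference between Δmed15 and wildtype did not pass either. H3 over input was -1.59, -1.98 and -2.50 in Δhrp1 and -0.03 and 0.30 in Δmed15. Of 241 members 4 had every Δhrp1 value below and every Δmed15 value above both wildtype values, where 94 of all 4866 features had. The other 3 were slm5, slp1 and dsc5, and at slp1 the Δhrp1 values of -1.65, -1.64 and -1.68 lay close to the wildtype values of -1.48 and -1.51.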

How the results depend on the processing

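Membership depended on how the ratio was made. Of the 250 members, 240 and 226 stayed with a floor of 20 and of 200 units, 190 with the normexp background correction, 139 with loess after it, 101 with the ratio as scanned and 34 with the deposited ChIP channel alone; without single Med15-myc samples 141 to 173 stayed. Under all 5 ratio settings 79 members stayed, 53 of them bright. Arrays scaled to one spread gave 5 higher and 16 lower intergenic members in Δmed15 against wildtype, 11 higher in Δhrp1 against wildtype, and 7 and 9 in Δhrp1 against Δmed15. Fits with no dye term gave 1 and 2 in Δmed15 and 8 and 20 in Δhrp1 against wildtype. With values at the floor kept, Δmed15 had 2 lower and Δhrp1 3 higher. Leaving out single samples gave ranges of 0 to 8 higher and 0 to 27 lower in Δmed15, 0 to 10 and 0 to 44 in Δhrp1, and 0 to 12 and 0 to 23 between the deletion strains, with the high ends without Δhrp1 sample 1. For H3 over input, normexp gave 68 members higher than the median, the ratio as scanned 0 higher and 12 lower, and single omissions 19 to 38 higher, the fewest without Δmed15 sample 2 (19) and Δhrp1 sample 3 (23). Between the deletion strains normexp gave 1 higher and omissions 0 to 1. On coding regions, the count of Med15-myc ratios above 0 was 25 as scanned and 54 to 86 with a sample left out, when 2 samples have to pass and not 3. For H3 there, scaled arrays gave 10 and 17 and no dye term 15 and 17 in Δmed15; omissions gave 0 to 14 and 0 to 24 in Δmed15 and 0 to 25 and 0 to 45 in Δhrp1. Of 833 checks of single features, 635 kept their call, 164 lost it and 34 gained it, and 0 changed sign. The causes of these changes were not tested. The labels do not say that equal replicate numbers pair samples of different strains, and the correlation of deviations was 0.20 for Δmed15 and wildtype, 0.15 for Δhrp1 and wildtype and 0.20 for the deletion strains, over 2 pairs each. A replicate block gave 1 higher and 6 lower intergenic members in Δmed15 and 12 and 59 in Δhrp1 against wildtype, 10 lower between the deletion strains, and on coding regions 4 and 10 in Δmed15 and 26 and 47 in Δhrp1. The block could not be fitted to H3 over input between the deletion strains, which left no residual degrees of freedom. The other 173 members had inputs with a median of -2.09 and SDs with a median of 1.10, against 0.43 in bright members.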
